A study of Homo sapiens with 32 samples.

Results

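The knockdown of MOCOS was compared with a control siRNA in LNCaP cells that had all been treated with thapsigargin (TG). The comparison was chosen by the column labels of the deposited table and holds 8 of the 32 libraries of the series, 4 labelled siMOCOS TG and 4 labelled siCTRL TG. Polyadenylated RNA was sequenced from strand-specific libraries of LNCaP, a human prostate cancer line that responds to androgen, and of C4-2B, its castration-resistant derivative. Both groups are LNCaP, both carry an siRNA and both had TG, so they differ by label in the siRNA alone. Knockdown and control cells without TG (vehicle, per the series description; 4 LNCaP libraries a group) and knockdown and control C4-2B cells with TG (4 libraries a group) serve as reference comparisons. The series calls the replicates biological, and the sources used here do not give the dose or time of TG. By the labels, each knockdown group holds 2 libraries from each of 2 siRNAs, but the knockdown columns carry a running number only, so nothing can be given per siRNA.

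MOCOS encodes the molybdenum cofactor sulfurase, which adds a sulfur to the cofactor that xanthine dehydrogenase (XDH) and aldehyde oxidase (AOX1) need, and xanthine dehydrogenase makes uric acid at the end of purine breakdown. TG blocks the SERCA pump, empties the endoplasmic reticulum (ER) of calcium and starts the unfolded protein response, in which IRE1 with XBP1s, ATF6 and PERK with ATF4 and CHOP each switch on target genes. The cell cycle genes described here are switched on in waves. E2F factors act at the entry into DNA replication, and the MuvB complex with B-MYB and FOXM1 acts before mitosis.

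The column totals, in units of 1e6 expected counts, were 19.9, 27.1, 18.9 and 21.3 in siMOCOS TG libraries 1 to 4, and 11.7, 17.5, 17.4 and 20.3 in siCTRL TG libraries 1 to 4. Luminal markers were high in all 8 libraries, with KRT18 at 345 to 433 CPM (counts scaled to a library total of 1e6) in siMOCOS TG and 293 to 348 CPM in siCTRL TG, while DCN and INSM1 were at 0 in all 8. Not all other markers were low. The mesenchymal marker FN1 was at 316 to 540 CPM in siMOCOS TG and 291 to 413 CPM in siCTRL TG. VIM, also mesenchymal, was at 3.85 to 8.39 and 4.2 to 5.14 CPM. The knockdown libraries stood apart in pairs. Over 10204 genes, the root mean square log2 difference was 0.209 between siMOCOS TG libraries 1 and 2 and 0.21 between 3 and 4, but 0.462 to 0.496 across the pairs, against 0.238 to 0.398 among the siCTRL TG libraries. The pairs are not split by any label, so the counts of the main lists below are also given without libraries 1 and 2 and without libraries 3 and 4, alternatives added after the data were seen. Deviations from the group mean also followed GC content in single libraries (Spearman's rho across genes from -0.38 to 0.412 in siMOCOS TG and from -0.376 to 0.565 in siCTRL TG), and the part of this in the results was not tested beyond a GC and length correction.

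MOCOS itself (chromosome 18, 36187519 to 36272157, plus strand, GRCh38) had 9.45, 11.9, 15.5 and 18.5 CPM in siMOCOS TG libraries 1 to 4, against 87.1, 88.7, 95.6 and 94.4 CPM in siCTRL TG libraries 1 to 4. Every knockdown library lay below every control library. The log2 change was -2.72 (SE 0.153, adjusted p = 6.29e-09). Among the enzymes around it, XDH had 28.2, 32.6, 29.5 and 32 CPM in siMOCOS TG, against 30, 30.4, 28.4 and 31.5 CPM in siCTRL TG. The groups overlapped, and the change was not called (log2 0.02, SE 0.132, adjusted p = 0.913). AOX1 stayed under 2 CPM in every library of both groups, with 0.854, 0.994, 1.55 and 0.808 CPM in siMOCOS TG and 0.503, 0.551, 0.349 and 0.296 CPM in siCTRL TG (log2 1.30, adjusted p = 0.0218), and its call was lost under 10 of 20 alternatives. SUOX, the sulfite oxidase, an enzyme with a molybdenum cofactor that MOCOS does not act on, had 29.5, 29.2, 24.2 and 21.8 CPM in siMOCOS TG, against 22.6, 20.2, 21.4 and 15.4 CPM in siCTRL TG (log2 0.40, adjusted p = 0.0374), and its call was lost under 9 of 20.

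Calls were made in edgeR's quasi-likelihood test over all 13806 genes, at adjusted p-values under 0.05. The test took the 4 knockdown libraries as independent. It held no term for the 2 siRNAs or the library pairs, so the SEs, SDs and adjusted p-values do not account for them. Knockdown with TG raised 1615 genes, 11.7% of those tested, and lowered 1410, or 10.2%. Of the 3025 called genes, 310 rose and 302 fell by more than 1 on the log2 scale. In 2487 called genes no knockdown library overlapped any control library, beside 24.8% of all genes tested with no such overlap. Without siMOCOS TG libraries 1 and 2, 609 genes were called higher and 934 lower. Without libraries 3 and 4, 1966 were called higher and 2760 lower. List counts below that leave out a pair are to be read beside these totals, which shift over all genes.

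**Figure D1:**
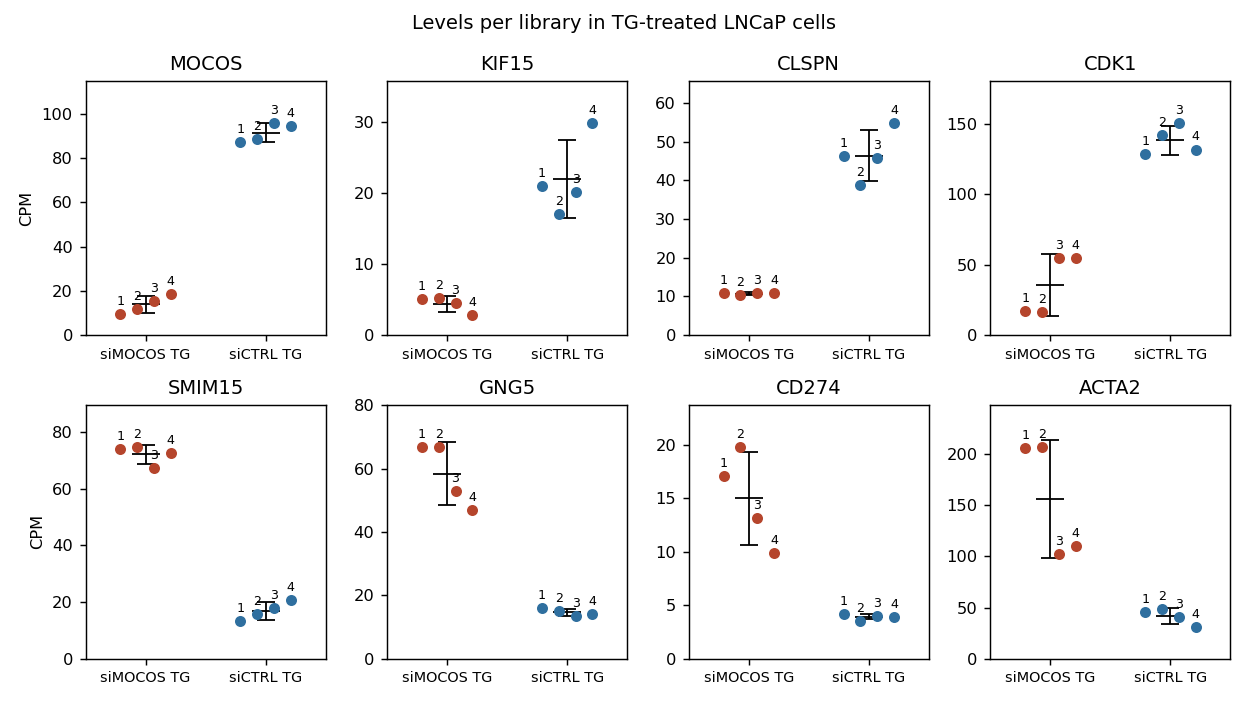
Levels in CPM (y axis, from 0) of 8 genes in the 4 siMOCOS TG libraries (left, red) and the 4 siCTRL TG libraries (right, blue) of LNCaP cells, with the library number over each point and the mean and SD as bars. CLSPN sits near 11 CPM in all 4 knockdown libraries, while CDK1 and ACTA2 split into libraries 1 and 2 and libraries 3 and 4.

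Genes of mitosis fell together, beside 10.2% of all genes tested called lower. Of 31 measured genes of the G2/M and mitosis list, 31 fell and 0 rose, with a median log2 change of -1.42 beside 0.01 over all genes tested. In 31 of them every knockdown library lay below every control library, beside 1703 of all 13806 genes tested. The count was 31 without libraries 1 and 2 and 30 without libraries 3 and 4. CDC25C, the phosphatase that switches on CDK1 at the entry into mitosis, had 2.14, 2.56, 3.56 and 2.47 CPM in siMOCOS TG, against 10.5, 11.9, 11.1 and 8.89 CPM in siCTRL TG, a log2 change of -1.98 (SE 0.166, adjusted p = 5.2e-07). CDK1, the kinase of mitotic entry (chromosome 10, 60778331 to 60794852), had 16.8, 16.4, 54.9 and 54.4 CPM in siMOCOS TG, against 128, 142, 150 and 132 CPM in siCTRL TG (log2 -1.96, SE 0.306, adjusted p = 0.000245). Knockdown libraries 1 and 2 were thus lower than libraries 3 and 4. All 4 lay below the controls, which the rule for picking the greatest falls, CDK1 among them, requires. DLGAP5, a spindle protein, had 12.9, 12.1, 14 and 13.3 CPM in siMOCOS TG, against 45.7, 41.8, 48.7 and 41.5 CPM in siCTRL TG (log2 -1.76, SE 0.134, adjusted p = 2.13e-07). CENPE, the kinetochore motor, changed by log2 -1.69 (adjusted p = 8.94e-07), and KIF20A, a kinesin of cytokinesis, by log2 -1.86 (adjusted p = 1.43e-06). The smallest fall in the list was that of CCNB1, cyclin B1, with 29 ± 3.27 CPM in siMOCOS TG and 37.4 ± 2.20 CPM in siCTRL TG (SD, n = 4 each; log2 -0.37, adjusted p = 0.0219). CCNB1 was picked out after its value was seen. In bulk RNA, fewer cells in a phase of the cycle and less of these transcripts per cell cannot be told apart.

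KIF15, a mitotic kinesin outside the lists (chromosome 3, 44761717 to 44873376), had the greatest fall after MOCOS among the called genes that averaged 5 CPM or more and had separate groups. It had 5.03, 5.29, 4.59 and 2.83 CPM in siMOCOS TG, against 21, 17, 20.1 and 29.9 CPM in siCTRL TG (log2 -2.31, SE 0.203, adjusted p = 7.9e-07). NCAPG, a condensin subunit, had 15.9, 14.1, 14.8 and 13.8 CPM in siMOCOS TG, against 49.8, 52.1, 57.5 and 59.1 CPM in siCTRL TG (log2 -1.90, SE 0.121, adjusted p = 3.21e-08). ESCO2, a cohesin acetyltransferase, DTL, a ubiquitin ligase adaptor of S phase, and KIF24, a kinesin of centrioles, fell by 2.05, 1.83 and 1.77 on the log2 scale (adjusted p = 1.12e-05, 0.000289 and 7.78e-06). DHRS2, a short-chain dehydrogenase, was among the 12 greatest falls as well, with 14.3, 13.9, 19.5 and 18.6 CPM in siMOCOS TG and 49.6, 61.3, 63.3 and 64.4 CPM in siCTRL TG (log2 -1.85, adjusted p = 1.32e-06).

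Genes of DNA replication and repair were lower as well, beside 10.2% of all genes tested called lower and 11.7% higher. Of 30 measured genes of the G1/S and DNA replication list, 23 fell and 0 rose (median log2 -0.99), with 26 called lower without libraries 1 and 2 and 20 without libraries 3 and 4. CLSPN, the checkpoint adaptor claspin, had 11, 10.3, 10.9 and 10.8 CPM in siMOCOS TG, against 46.2, 38.7, 45.8 and 54.7 CPM in siCTRL TG (log2 -2.11, SE 0.186, adjusted p = 8.18e-07). CDC6, which loads the replicative helicase, had 78.5, 75.2, 83.1 and 77.6 CPM in siMOCOS TG, against 170, 173, 175 and 173 CPM in siCTRL TG (log2 -1.14, SE 0.0879, adjusted p = 2.45e-07). MCM3, a subunit of that helicase, changed by log2 -0.88 (SE 0.0773, adjusted p = 7.9e-07). The cyclin E genes CCNE1 and CCNE2 and the licensing factor CDT1 were not called, at log2 -0.03, -0.51 and -0.01. Of 19 DNA repair and Fanconi genes, 18 fell (median log2 -1.15), with 17 and 18 called without the first and the second pair of knockdown libraries. BLM, the Bloom helicase, had 4.13, 4.08, 4.69 and 3.86 CPM in siMOCOS TG, against 14, 13.8, 14.1 and 16.8 CPM in siCTRL TG (log2 -1.81, SE 0.187, adjusted p = 4.56e-06). BRCA1, which acts in repair by homologous recombination, changed by log2 -1.73 (adjusted p = 7.76e-06) and EXO1, an exonuclease, by log2 -1.63 (adjusted p = 6.98e-06). Among 18 genes of pyrimidine metabolism, 8 fell and 2 rose. Those that fell included RRM1, the large subunit of ribonucleotide reductase (log2 -1.13, adjusted p = 4.18e-06), and TYMS, thymidylate synthase (log2 -1.12, adjusted p = 3.48e-05).

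Promoters of 4 of these genes are printed as examples of windows that hold the letters searched, and were picked for holding them. Not every fallen gene has them: the windows of CDC25C and CENPE hold 0 runs of any of the 3 kinds given next, that of KIF20A holds 0 of the CHR element and that of BLM 0 of the E2F letters. The sequences are RefSeq's (GRCh38.p14), from 250 bases before to 50 after the gene's start, and capitals mark the letters searched on both strands: TTTGAA (the CHR element), CCAAT, and the E2F letters TTTGGCGC, TTTCCCGC, TTTCGCGC and TTTGCCGC. DLGAP5 lies at chr14:55191536-55191835, minus strand, CDK1 at chr10:60778081-60778380, plus strand, CLSPN at chr1:35769929-35770228, minus strand and CDC6 at chr17:40287629-40287928, plus strand.
DLGAP5: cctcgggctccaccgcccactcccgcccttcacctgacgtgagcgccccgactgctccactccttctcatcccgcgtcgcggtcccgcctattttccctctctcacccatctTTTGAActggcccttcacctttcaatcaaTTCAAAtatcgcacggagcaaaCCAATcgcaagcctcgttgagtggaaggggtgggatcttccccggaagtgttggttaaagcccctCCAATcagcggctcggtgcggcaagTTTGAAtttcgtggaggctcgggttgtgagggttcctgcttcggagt
CDK1: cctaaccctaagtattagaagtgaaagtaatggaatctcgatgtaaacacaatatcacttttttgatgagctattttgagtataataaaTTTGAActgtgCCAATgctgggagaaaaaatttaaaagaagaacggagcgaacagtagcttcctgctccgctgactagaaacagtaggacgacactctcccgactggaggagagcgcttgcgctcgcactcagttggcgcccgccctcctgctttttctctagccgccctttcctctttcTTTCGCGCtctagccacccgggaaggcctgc
CLSPN: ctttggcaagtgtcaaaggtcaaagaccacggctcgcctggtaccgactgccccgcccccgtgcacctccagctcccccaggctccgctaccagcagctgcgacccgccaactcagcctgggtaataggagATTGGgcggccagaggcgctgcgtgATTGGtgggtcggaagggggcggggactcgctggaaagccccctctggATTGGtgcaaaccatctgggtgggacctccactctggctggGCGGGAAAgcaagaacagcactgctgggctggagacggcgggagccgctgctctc
CDC6: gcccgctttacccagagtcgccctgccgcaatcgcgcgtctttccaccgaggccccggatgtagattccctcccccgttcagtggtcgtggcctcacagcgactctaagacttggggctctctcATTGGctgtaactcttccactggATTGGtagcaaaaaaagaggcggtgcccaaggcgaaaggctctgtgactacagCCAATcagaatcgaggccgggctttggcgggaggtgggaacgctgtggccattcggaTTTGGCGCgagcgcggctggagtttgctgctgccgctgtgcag
The DLGAP5 window holds 3 TTTGAA and 2 CCAAT runs, that of CDK1 1 TTTGAA, 1 CCAAT and 1 E2F run, and those of CLSPN and CDC6 3 CCAAT runs and 1 E2F run each. TTTGAA was found in 16 of the 25 G2/M genes with a promoter in the table (64%), against 9.75% of the 10670 promoters of genes tested. An E2F run was found in 18 of 26 G1/S genes (69.2%), against 5.37% of all promoters, and TTTGAA in 0 of these 26. These matches describe letters in a window, and both lists are made of genes known for such sites.

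**Figure D2:**
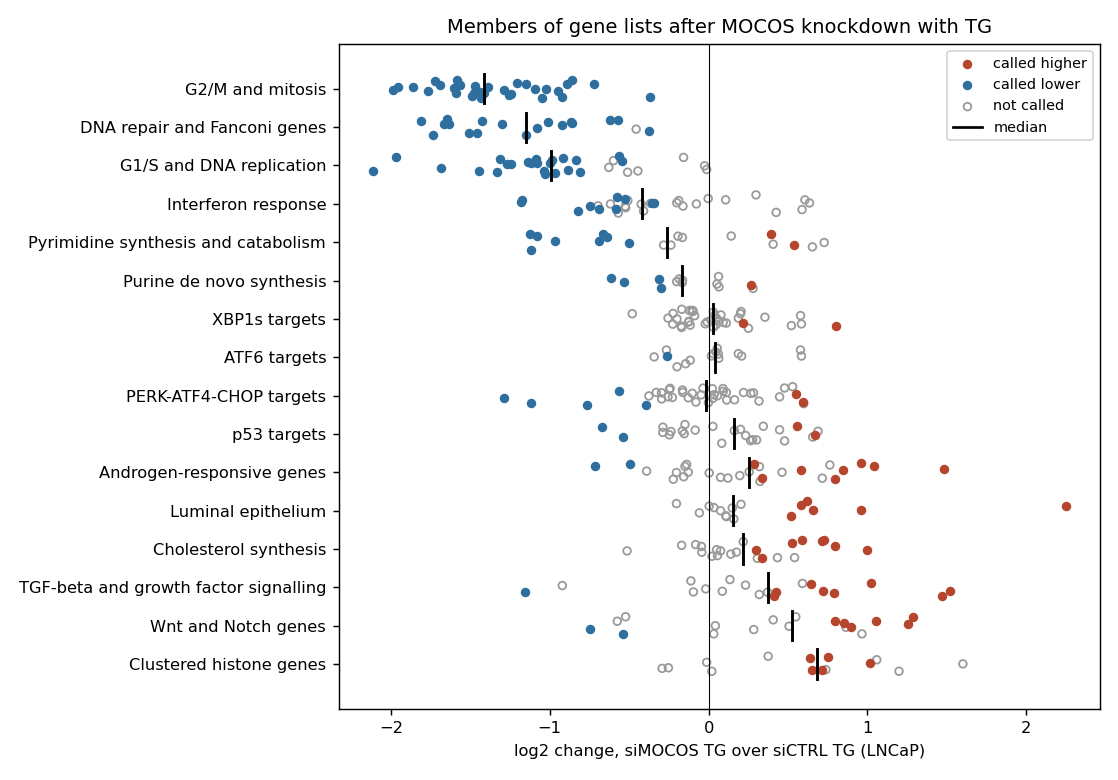
Log2 change of single genes, siMOCOS TG over siCTRL TG in LNCaP (x axis), by gene list (y axis), with called genes filled (red higher, blue lower), others open, and the list median as a bar. Every gene of the mitosis, repair and replication lists lies below 0, the closest at -0.01. The 3 lists of the unfolded protein response are centred near 0.

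The unfolded protein response lists had medians near 0 with knockdown in TG-treated cells. For scale, 11.7% of all genes tested were called higher and 10.2% lower. Of 39 XBP1s targets, which serve ER import and degradation, 2 rose and 0 fell (median log2 0.03), of 16 ATF6 targets 0 rose and 1 fell, ATF6 itself (median 0.04), and of 40 PERK-ATF4-CHOP targets 2 rose and 5 fell (median -0.02). Without libraries 3 and 4, 14 PERK-ATF4-CHOP targets were called lower, and 3 without libraries 1 and 2. Calls lower over all genes numbered 2760 and 934 in these settings. The summed level of this list was 8717 and 8459 CPM in siMOCOS TG libraries 1 and 2, below the 9951 to 10423 CPM of siCTRL TG. In siMOCOS TG libraries 3 and 4 it was 10601 and 10761 CPM, above the controls. The median thus pools pairs that lay on opposite sides of the controls in this sum. Set beside this, TG in siCTRL cells, a comparison that shares the siCTRL TG libraries, raised 3394 genes (24.6% of those tested) and lowered 3467 (25.1%), among them 29 XBP1s, 13 ATF6 and 35 PERK-ATF4-CHOP targets raised. HSPA5, the ER chaperone BiP, had 5780 ± 900 CPM in siMOCOS TG and 7333 ± 535 CPM in siCTRL TG (SD, n = 4 each; log2 -0.34, adjusted p = 0.0622). DDIT3, which encodes CHOP, had 222 ± 58.4 CPM in siMOCOS TG and 272 ± 24 CPM in siCTRL TG (SD, n = 4 each; log2 -0.30, adjusted p = 0.219). HSPA5 and DDIT3 were picked as well-known targets and are not among the called genes. Of the called targets, VEGFA, the angiogenic growth factor, had 342, 343, 367 and 386 CPM in siMOCOS TG, against 567, 546, 484 and 529 CPM in siCTRL TG (log2 -0.56, SE 0.0996, adjusted p = 0.000718). ASNS, asparagine synthetase, had 301, 308, 332 and 318 CPM in siMOCOS TG, against 390, 409, 430 and 427 CPM in siCTRL TG (log2 -0.40, SE 0.0814, adjusted p = 0.00236), a call lost when a change of over 1.2-fold was required. JDP2, a bZIP repressor, changed by log2 0.59 (adjusted p = 0.00316), and was not called once GC and length were corrected for.

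Some interferon response genes fell, beside 10.2% of all genes tested called lower. Of 30 measured, 10 fell and 0 rose (median log2 -0.42), with 6 called lower without libraries 1 and 2 and 17 without libraries 3 and 4. MX1, an antiviral GTPase, had 3.94, 4.12, 4.43 and 4.09 CPM in siMOCOS TG, against 10.3, 8.43, 9.2 and 9.48 CPM in siCTRL TG (log2 -1.17, SE 0.169, adjusted p = 0.000108). OAS3, a sensor of double-stranded RNA, had 18.7, 17.3, 8.55 and 9.47 CPM in siMOCOS TG, against 35.2, 30.1, 27.6 and 30.4 CPM in siCTRL TG (log2 -1.18, SE 0.276, adjusted p = 0.00571). Again both knockdown pairs lay below the controls at different levels.

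Among called genes that averaged 5 CPM or more and had separate groups, the 12 greatest rises did not belong to a single list. SMIM15, a small membrane protein gene (chromosome 5, 61157709 to 61162474, minus strand), had 73.9, 74.7, 67.3 and 72.5 CPM in siMOCOS TG, against 13.2, 15.9, 17.9 and 20.6 CPM in siCTRL TG (log2 2.09, SE 0.135, adjusted p = 3.21e-08). GNG5, a G protein gamma subunit, had 66.8, 66.8, 53.1 and 47 CPM in siMOCOS TG, against 16.1, 15, 13.6 and 14.1 CPM in siCTRL TG (log2 1.99, SE 0.136, adjusted p = 6.25e-08). CD274, which encodes the immune checkpoint ligand PD-L1, had 17.1, 19.8, 13.2 and 9.92 CPM in siMOCOS TG, against 4.19, 3.58, 4.02 and 3.95 CPM in siCTRL TG (log2 1.94, SE 0.187, adjusted p = 2.06e-06). F5, coagulation factor V, had 24.5, 33.1, 18.1 and 17.1 CPM in siMOCOS TG, against 6.88, 3.75, 5.01 and 7.41 CPM in siCTRL TG (log2 2.02, adjusted p = 5.62e-05). In each of these 4 genes the groups did not overlap, as the rule for picking them requires. EPAS1, the hypoxia-inducible factor HIF-2alpha, had 12.8, 12.8, 5.98 and 5.7 CPM in siMOCOS TG, against 3.19, 1.93, 3.26 and 2.81 CPM in siCTRL TG (log2 1.74, adjusted p = 0.000581). LOC151760, RGAG4, FAM222A and FAXDC2 rose by 1.64 to 1.94 on the log2 scale. FAXDC2 lost the call without siMOCOS TG libraries 1 and 2 and without siCTRL TG libraries 2 and 4, where its adjusted p reached 0.193. PCDH11Y was also among the 12 greatest rises, but shares nearly all its sequence with PCDH11X, so its counts are uncertain. The actin and myosin genes ACTA2 and MYL9, of the contractile apparatus, rose by log2 1.91 (SE 0.225, adjusted p = 1.49e-05) and 1.92 (SE 0.235, adjusted p = 2.19e-05). ACTA2 had 205, 207, 102 and 110 CPM in siMOCOS TG and 46.1, 48.2, 40.8 and 30.9 CPM in siCTRL TG. ACTA2 made up most of the summed level of the list of immune, stromal, endothelial and blood markers. This sum was 127 to 239 CPM in siMOCOS TG and 48.3 to 67.5 CPM in siCTRL TG. Of the 14 genes listed, 5 were measured, and 3 of these were higher (ACTA2, COL1A1 and COL3A1), beside 11.7% of all genes tested. Without libraries 1 and 2, 1 was called higher, and COL1A1 and COL3A1 lost the call. Calls higher over all genes went from 1615 to 609 in that setting. The fibroblast marker DCN was at 0 in all libraries, while COL1A1 and COL3A1 were detected. The part of other cells in the ACTA2 result was not tested.

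**Figure D3:**
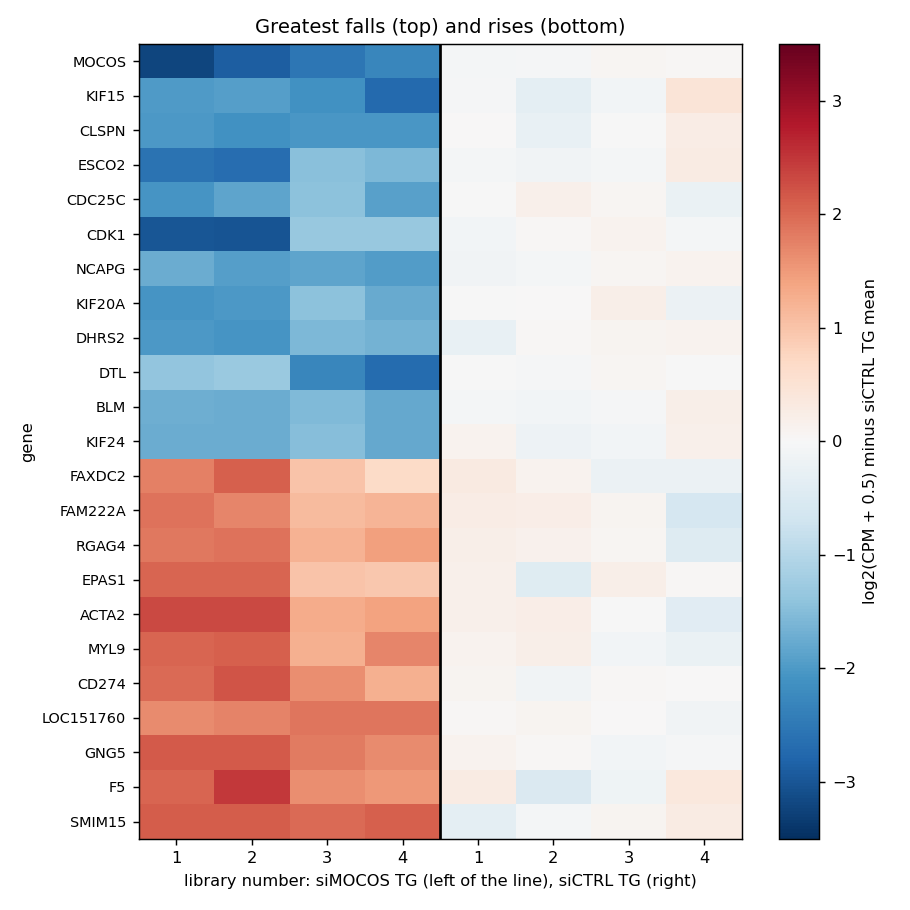
Log2(CPM + 0.5) minus the siCTRL TG mean (colour) of the 12 greatest falls and 11 of the 12 greatest rises (rows) in the siMOCOS TG libraries 1 to 4 (left of the line) and the siCTRL TG libraries 1 to 4 (right). Rows were picked for groups that do not overlap, so each row keeps the same colour over the 4 knockdown libraries by that rule. Depth differs between libraries 1 and 2 and libraries 3 and 4, as for CDK1 and ACTA2.

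Other marker lists had smaller medians than the log2 0.811 of the immune, stromal, endothelial and blood markers. The medians were 0.154 for luminal epithelium, 0.255 for androgen-responsive genes and 0.275 for neuroendocrine markers. For scale, 11.7% of all genes tested were called higher and 10.2% lower. Of 16 luminal epithelium genes 6 rose and 0 fell, with 3 called without libraries 1 and 2 and 7 without libraries 3 and 4. TMPRSS2, a serine protease gene driven by androgen, had 105, 105, 119 and 111 CPM in siMOCOS TG, against 80.4, 75.1, 77.1 and 61.1 CPM in siCTRL TG (log2 0.58, SE 0.104, adjusted p = 0.000742). FOXA1, a pioneer factor of the luminal lineage, had 471, 480, 466 and 465 CPM in siMOCOS TG, against 377, 313, 338 and 286 CPM in siCTRL TG (log2 0.52, adjusted p = 0.00364), which was no longer called after correcting for GC and length or when siCTRL TG libraries 2 and 4 were left out. KLK3, which encodes prostate-specific antigen, was not called (log2 0.07, adjusted p = 0.749). Of 27 androgen-responsive genes, 8 rose and 2 fell (9 and 8 called higher without the first and the second knockdown pair). MAF, a bZIP transcription factor, had 33.7, 32.2, 21.7 and 24.1 CPM in siMOCOS TG, against 9.98, 11, 8.61 and 10.3 CPM in siCTRL TG (log2 1.48, SE 0.15, adjusted p = 3.37e-06), while FKBP5, a co-chaperone of steroid receptors, changed by log2 -0.72 (adjusted p = 0.000729). Of 6 measured neuroendocrine markers 2 rose and 0 fell, and the log2 change was above 0 in 3 and below 0 in 3. Their summed level was 222 to 489 CPM in siMOCOS TG and 143 to 165 CPM in siCTRL TG. SYT4, a synaptotagmin, was one of the called members, at 305 ± 131 CPM in siMOCOS TG and 121 ± 8.01 CPM in siCTRL TG (SD, n = 4 each; log2 1.33, adjusted p = 0.000734), while CHGA and INSM1 were between 0 and 0.037 CPM in all 8 libraries. SYT4 was picked out after its value was seen.

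Some cholesterol synthesis genes rose, beside 11.7% of all genes tested called higher. Of 23 measured, 8 rose and 0 fell (median log2 0.22), with 4 called higher without libraries 1 and 2 and 8 without libraries 3 and 4. SQLE, squalene epoxidase, had 84.9, 93.6, 62 and 59.3 CPM in siMOCOS TG, against 33.8, 38.4, 43.4 and 34.7 CPM in siCTRL TG (log2 1.00, SE 0.161, adjusted p = 0.000335). LSS, lanosterol synthase, had 103, 91.9, 70.4 and 86.7 CPM in siMOCOS TG, against 53.3, 60.9, 45.9 and 52.7 CPM in siCTRL TG (log2 0.73, SE 0.121, adjusted p = 0.000417). IDI1, an isomerase early in the pathway, was not called, at log2 -0.51.

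Shorter lists each had a few called members, where 11.7% of all genes tested were called higher and 10.2% lower. Without libraries 1 and 2, calls higher over all genes also went from 1615 to 609. Of 19 TGF-beta and growth factor genes 8 rose and 1 fell, with 2 called higher without libraries 1 and 2, and these included CYR61, a matricellular protein (log2 1.47, adjusted p = 0.000327), and ERBB2, a receptor tyrosine kinase (log2 0.72, adjusted p = 0.00116). Of 18 Wnt and Notch genes 6 rose and 2 fell, 1 of them called higher without libraries 1 and 2, and NKD1, a Wnt feedback inhibitor, changed by log2 1.29 (adjusted p = 0.0019). Of 14 clustered histone genes 5 rose and 0 fell, with 0 called higher without libraries 1 and 2, and HIST2H2BE changed by log2 0.75 (adjusted p = 0.00129). Of 13 genes of purine de novo synthesis, 4 fell and 1 rose, among them GMPS, which makes GMP (log2 -0.53, adjusted p = 0.000549), and GART (log2 -0.61, adjusted p = 0.00126). Of 15 genes of purine breakdown and the molybdenum cofactor, 3 rose and 2 fell, with 1 called higher without libraries 1 and 2. AMPD2, an AMP deaminase, had 38.1, 33.5, 30.4 and 40.8 CPM in siMOCOS TG, against 23.4, 22.9, 21.2 and 22.6 CPM in siCTRL TG (log2 0.67, adjusted p = 0.00108). Of 25 p53 targets, 2 rose and 2 fell, no more than the shares over all genes tested. CDKN1A, the p21 inhibitor of cyclin-dependent kinases, was not called (log2 0.34, adjusted p = 0.402).

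Set beside this, knockdown without TG in LNCaP raised 829 genes (6% of those tested) and lowered 1344 (9.73%), in libraries that are none of those above. Of the 1410 genes lower with TG, 835 were also lower without it, which is 59.2% of the first list and 62.1% of the second. Of the 1615 higher with TG, 532 were also higher without, 32.9% and 64.2% of the lists. The gene called in opposite directions was INSIG1. The G2/M list fell in 31 of 31 members without TG as well, G1/S in 27 of 30 and DNA repair in 17 of 19. CDC6 changed by log2 -1.14 with TG and -1.73 without TG (adjusted p = 5.18e-09), and the difference was not called (log2 0.60, adjusted p = 0.116).

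The difference itself was tested as the interaction, the effect of knockdown under TG less the effect in cells without it. It called 1 gene higher (0.00724% of those tested) and 0 lower (0%) by edgeR. At an unadjusted p under 0.05 there were 593 higher and 325 lower, and DESeq2 called 37 higher and 23 lower. The count rested on the knockdown libraries used, with 68 higher and 224 lower without siMOCOS TG libraries 3 and 4, and 3 higher and 5 lower without libraries 1 and 2. The 1 gene was INSIG1, which holds the sterol sensor SCAP in the ER (chromosome 7, 155297776 to 155310235, plus strand). It had 122, 125, 95.9 and 94.3 CPM in siMOCOS TG, against 71.2, 76, 76.7 and 79.6 CPM in siCTRL TG (log2 0.53, adjusted p = 0.00127). Without TG it had 79.7, 77.8, 77.6 and 78.1 CPM in siMOCOS, against 123, 106, 108 and 104 CPM in siCTRL (log2 -0.50, adjusted p = 0.00261). The interaction was log2 1.02 (SE 0.141, adjusted p = 0.0149), and was called in 15 of 27 alternatives, its value between 0.745 and 1.12. SQLE had 69.9, 63.2, 45.6 and 52 CPM in siMOCOS and 81.3, 60.3, 65 and 65.5 CPM in siCTRL without TG, and its interaction of log2 1.23 was not called (adjusted p = 0.092). ACTA2 and MYL9 were not called either (log2 1.62, adjusted p = 0.116, and log2 1.70, adjusted p = 0.191).

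**Figure D4:**
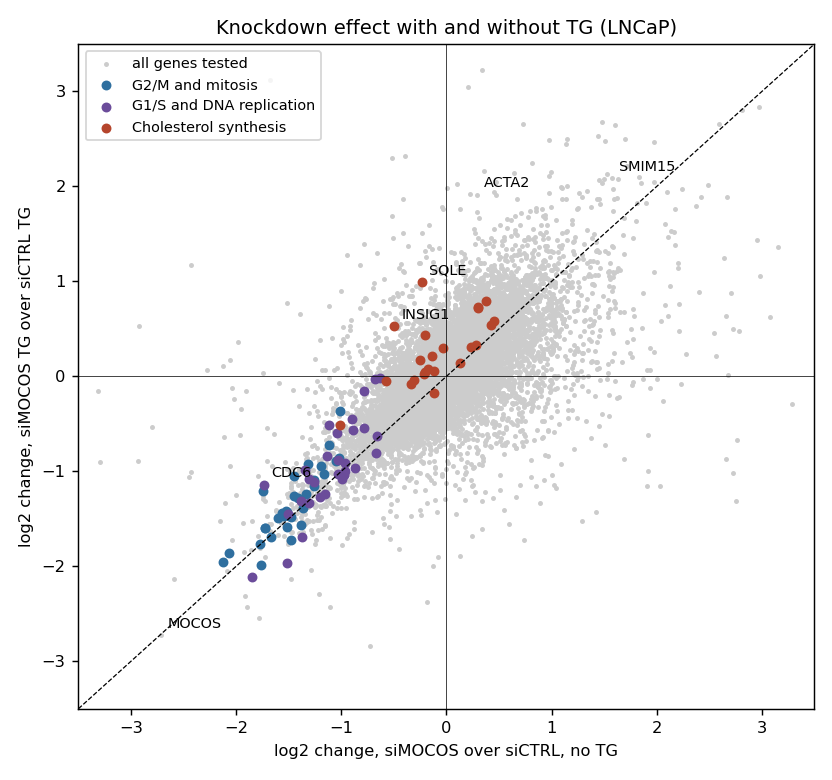
Log2 change of each gene with knockdown in LNCaP, with TG (y axis) and without TG (x axis), with 3 lists in colour and all genes in grey; the dashed line marks equal change, and 23 of 13806 genes lie outside the axes. The mitosis and replication genes lie near the line, below 0 on both axes, and INSIG1 lies above 0 with TG and below 0 without it.

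**Figure D5:**
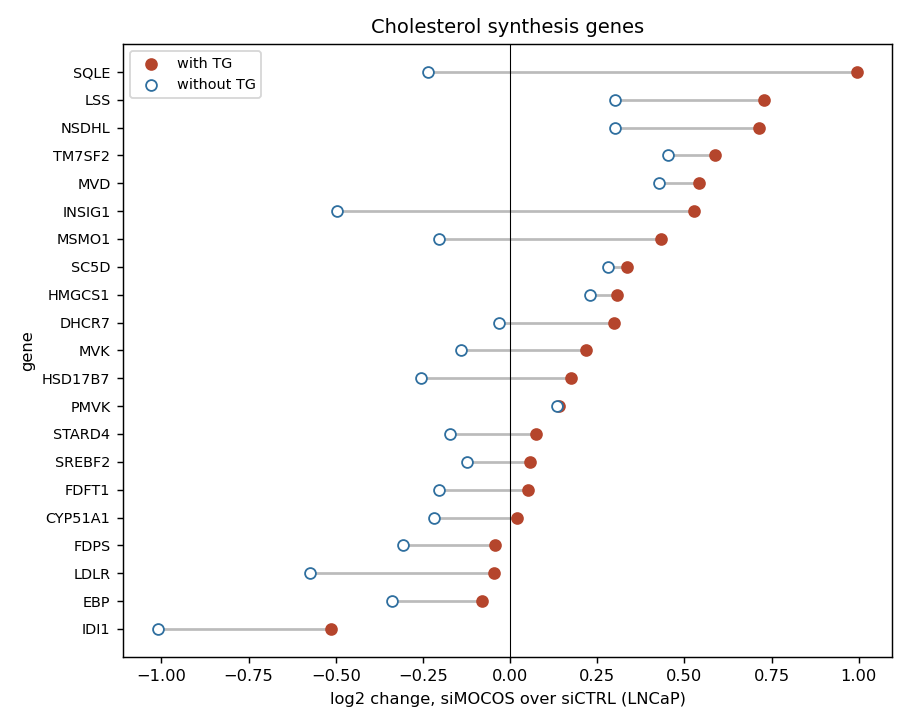
Log2 change with knockdown in LNCaP (x axis) of 21 of the 23 cholesterol synthesis genes (y axis), filled with TG and open without TG, joined by a line. Of the 21 genes drawn, 10 lie above 0 with TG and below 0 without, SQLE and INSIG1 among them, and of these INSIG1 alone was called in the interaction.

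In C4-2B cells with TG, knockdown raised 1301 genes (9.21% of 14127) and lowered 1074 (7.6%). Over the 13458 genes tested in both lines, 647 fell in both, 46.3% of the LNCaP list and 61.4% of the C4-2B list, and 517 rose in both, 32.6% and 41.1%. The G2/M list fell in 31 of 31, G1/S in 28 of 30 and DNA repair in 16 of 19. SMIM15 rose in C4-2B by log2 2.59 (adjusted p = 1.03e-08) and GNG5 by log2 2.47 (adjusted p = 1.11e-07). ARHGDIA, CLU and RGS2 were called in opposite directions in the 2 lines. The knockdown effect with TG in LNCaP minus that in C4-2B was called higher for 28 genes (0.191% of 14628) and lower for 35 (0.239%), counts that changed by more than 1.5 times under several alternatives. PLK2, a polo-like kinase and p53 target, had 31.2, 29.3, 43.2 and 48.7 CPM in siMOCOS TG, against 25.2, 21.9, 22.3 and 26.6 CPM in siCTRL TG of LNCaP. In C4-2B it had 49.9, 46.7, 50.2 and 45.3 CPM in siMOCOS TG, against 10.7, 11, 11.9 and 10.8 CPM in siCTRL TG, so that the rise was smaller in LNCaP (log2 0.67) than in C4-2B (log2 2.11), a difference of -1.44 (adjusted p = 5.12e-05). CDT1 was not called in LNCaP (log2 -0.01) and fell in C4-2B by log2 1.71 (difference 1.70, adjusted p = 0.0154), with 5.98, 4.51, 3.45 and 3.46 CPM in siMOCOS TG and 3.86, 6.11, 5.06 and 2.52 CPM in siCTRL TG of LNCaP. In C4-2B, CDT1 had 3.36, 4.39, 2.02 and 2.89 CPM in siMOCOS TG, against 9.64, 10.6, 11.2 and 9.93 CPM in siCTRL TG.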

How the data were processed

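Polyadenylated RNA was measured in 32 libraries, of which 8 are compared here. The deposited table holds the authors' expected counts per gene (estimated, length-scaled, 29744 genes), and 0 of its columns of values were left unused. Per the submitters' processing notes, the tools were Salmon 1.5.2, STAR 2.6.1d, FastQC 0.11.9, cutadapt 3.4 and Trim Galore 0.6.7, with hg38. The annotation is not given in the sources used here. Counts were rounded and fitted with edgeR 4.0.16 in R 4.3.3 (filterByExpr, TMM factors, quasi-likelihood F-test) on the 16 LNCaP libraries (13806 genes, 12 residual degrees of freedom). C4-2B was fitted alone, and both lines together for the line difference. Adjusted p-values are Benjamini-Hochberg over all genes tested, with calls under 0.05. The SE is the unshrunken log2 change over the square root of F. CPM use TMM factors, except those of the KRT18, FN1, VIM, DCN, CHGA and INSM1 marker check, which use column totals. The 2 siRNAs were pooled.

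The members and gene lists were chosen with earlier results of these data known. Named genes were MOCOS, XDH, AOX1 and SUOX, the 12 greatest rises and falls among the called genes that averaged 5 CPM or more and had separate groups, and, of each list with at least 3 called members, the 3 of smallest adjusted p. They also were all called members of the purine breakdown list, up to 5 genes a direction of the interaction and 3 a direction of the line difference. Other members given are outside that rule and were picked with their values known. The edgeR steps for knockdown with TG in LNCaP were run on simulated counts, drawn independently and without the library pairs. Other steps were not tested in this way. Alternatives were DESeq2 1.42.0, limma voom 3.58.1, other scalings and filters, other sets of libraries in the fit, a GC and length correction, glmTreat at 1.2-fold, and left-out libraries. Gene coordinates are those of GENCODE on GRCh38, matched by symbol. Some genes of the lists count in the totals but are not reported here by name.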

Additional observations from a re-analysis of the deposited data

Results flagged for a closer look

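In 7 of 244 groups of 4 libraries (122 named genes, both groups of the comparison), 1 library lay far from the other 3 by Dixon's criterion, which chance meets in about 1 in 20 groups. In siMOCOS TG, KIF24 was at 7.42 CPM in library 3, against 5.93 to 6.17 CPM in the others, and SPDEF, a luminal transcription factor, was at 15.7 CPM in library 1, against 10.5 to 11.3 CPM. In siCTRL TG library 4, ESCO2 was at 37.1 CPM, against 28 to 29 CPM in the other control libraries, and BLM at 16.8 CPM, against 13.8 to 14.1 CPM. In siCTRL TG library 1, GART was at 241 CPM, against 222 to 223 CPM, and NDUFA5, a subunit of respiratory complex I, was low at 95.1 CPM, against 109 to 111 CPM. PFKL, a phosphofructokinase, was at 36 CPM in siCTRL TG library 2, against 27.4 to 28.1 CPM.

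The knockdown effect of INSIG1 with TG minus that without TG was log2 1.02. The knockdown effect with TG in LNCaP minus that in C4-2B was log2 -1.44 for PLK2, -1.29 for TCP11L2, -1.22 for RP11-279F6.1 and -0.72 for SAT1, the polyamine acetyltransferase. It was log2 2.25 for PHLDA1, 1.70 for CDT1 and 1.66 for the histone gene HIST1H2BJ.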

How the results depend on the processing

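Without siCTRL TG libraries 2 and 4, 716 genes were higher and 880 lower with knockdown under TG. With a change of over 1.2-fold required, 667 were higher and 584 lower. Without siMOCOS TG libraries 1 and 2, 609 were higher and 934 lower. Without siMOCOS TG libraries 3 and 4, 1966 were higher and 2760 lower. Leaving out 1 library gave 844 (without siMOCOS TG 1) to 1574 higher. The share of calls that were higher was 53.4% with TMM, 50.2% with RLE, 57.7% with upper-quartile factors and 49.3% in DESeq2. Of the 3025 calls, DESeq2 made 2999 in the same direction and the GC and length correction kept 1771. Of the named genes called, 62 were called under all 20 settings and 54 lost the call under at least 1. The counts of lower G2/M, G1/S and DNA repair genes stayed within 1.5 times under every alternative run. Without siCTRL TG libraries 2 and 4, 5 pyrimidine genes, 6 interferon genes, 4 androgen-responsive genes, 5 cholesterol genes, 2 fatty acid genes and 2 TGF-beta genes were called in the direction given above. Lower interferon genes numbered 6 with the GC and length correction, 4 at 1.2-fold, 6 without knockdown libraries 1 and 2 and 17 without 3 and 4 (6 to 15 with 1 library left out). Without knockdown libraries 1 and 2, 4 cholesterol genes were higher. Of 8 fatty acid genes higher, 5 were with the 8 libraries alone, 2 with all 32, 4 with the GC correction, 2 at 1.2-fold and 1 without knockdown libraries 1 and 2 (2 to 7 with 1 left out). Of 8 TGF-beta genes, 4 were higher without a filter, with 8 libraries, with 32 and with the GC correction, 3 at 1.2-fold and 2 without knockdown libraries 1 and 2 (3 to 7 with 1 left out). XDH, not called, was at log2 -0.0165 without knockdown libraries 3 and 4, and between -0.0392 and 0.0303 with 1 library left out. Without TG, 264 genes were higher and 535 lower at 1.2-fold, and 496 to 828 higher with 1 library left out. The interaction gave 37 genes higher and 23 lower in DESeq2, 12 and 5 with the GC correction, 3 and 5 without knockdown libraries 1 and 2, and 68 and 224 without 3 and 4. It gave 1 lower with upper-quartile factors, and 0 higher without siCTRL TG libraries 2 and 4 and at 1.2-fold (0 to 1 with 1 left out). The line difference gave 128 higher and 193 lower in DESeq2, 46 and 62 with voom, 8 and 7 without a filter, 4 and 2 without siCTRL TG libraries 2 and 4, and 5 and 3 at 1.2-fold. It gave 67 lower with RLE and 65 with upper-quartile factors, and, with 1 library left out, 5 to 86 higher and 4 to 86 lower, the lowest without LNCaP siCTRL TG library 4 and the highest without C4-2B siMOCOS TG library 2. The cause of these shifts was not tested. No paired analysis was possible because the knockdown columns carry a running number only, while the labels number replicates within each siRNA.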

Other observations

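Some gene groups moved in both directions, where 11.7% of all genes tested were called higher and 10.2% lower. Of 17 heat shock genes, most of them cytosolic, 5 rose and 3 fell with knockdown under TG (median log2 -0.07). Without knockdown libraries 1 and 2, 4 were called higher and 3 lower, and without libraries 3 and 4, 5 higher and 6 lower. Their summed level was 4724 to 5760 CPM in siMOCOS TG and 6706 to 7165 CPM in siCTRL TG. HSPA1B, an inducible HSP70, had 71.6, 63.7, 56 and 55.8 CPM in siMOCOS TG, against 31.3, 41.3, 37.3 and 35 CPM in siCTRL TG (log2 0.77, adjusted p = 0.000518). HSPD1, the mitochondrial chaperonin, changed by log2 -0.57 (adjusted p = 0.000592). Of 12 genes of calcium handling at the ER, 3 rose, and these were ORAI1, ORAI2 and ORAI3, which encode store-operated channels of the plasma membrane. The ER pump ATP2A2 and the ER channels ITPR1, ITPR2 and ITPR3 were not called. Of the list, 0 were called higher without knockdown libraries 1 and 2. ORAI1 was at 0.407 to 1.99 CPM over both groups (adjusted p = 0.0493), and its call was lost under 14 of 20 alternatives. None of the 3 ORAI genes was called once GC and length were corrected for. ORAI3 had 7.88, 6.81, 5.31 and 5.25 CPM in siMOCOS TG, against 3.02, 3.8, 2.97 and 3.95 CPM in siCTRL TG (log2 0.87, adjusted p = 0.00427). Of 25 fatty acid genes 8 rose and 4 fell, and CROT, a peroxisomal carnitine acyltransferase, had 29.9, 30.7, 19 and 18.3 CPM in siMOCOS TG, against 7.97, 8.92, 11.2 and 11.3 CPM in siCTRL TG (log2 1.31, adjusted p = 0.000386).

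Among genes of polyamine metabolism, ODC1, ornithine decarboxylase, had 300, 281, 249 and 256 CPM in siMOCOS TG, against 398, 453, 452 and 413 CPM in siCTRL TG (log2 -0.66, adjusted p = 4.63e-05). SAT1, which acetylates polyamines, had 236, 218, 280 and 261 CPM in siMOCOS TG, against 193, 197, 191 and 205 CPM in siCTRL TG (log2 0.34, adjusted p = 0.0113). The SAT1 call was lost under 7 of 20 alternatives, among them leaving out siCTRL TG library 1 or 3 or siMOCOS TG library 3 or 4, with log2 changes of 0.17 to 0.46.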
